A study of Homo sapiens with 6 samples.

Results

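Immediate early response genes are transcribed within minutes of a growth factor, serum or stress signal, before any new protein has to be made. Their promoters carry preassembled factors such as SRF with its ternary complex partners and CREB, which ERK, JNK and p38 kinases switch on, and their mRNAs are usually short lived. FOS and JUN proteins pair to form AP-1, EGR1 and ATF3 are further transcription factors, and DUSP1 is a phosphatase that ends MAP kinase signalling. The 10 genes described here, FOS, FOSB, JUN, JUNB, JUND, EGR1, ATF3, IER2, IER3 and DUSP1, were taken by name from 35322 gene symbols. The naming rule uses no measured value, but the set was proposed with earlier results of these data known. All 10 were among the 16510 genes tested.

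RNA of 22Rv1, a human line grown from a prostate carcinoma, was sequenced in 6 libraries, with and without knockdown of ZMYND11, a reader of methylated histone H3.3. The study used RNA sequencing of such cells to examine splicing, that of PKM among it. There were 2 libraries each of control, ZM11-kd1 and ZM11-kd2, the last 2 being separate ZMYND11 knockdown lines. The knockdown lines were made with lentiviral shRNAs and drug selection. By the study's methods, infected cells were then kept under a lower dose of puromycin. Whether every group was under the drug at harvest is not given in the sources used here, and its part was not tested. The cells grew in serum-containing medium, and the labels name no further treatment for any group. The labels give the control genotype as WT, whereas the study describes control shRNAs, so it is not settled whether the control cells carried a vector, and the shRNA in each knockdown line is not given in the sources used here. The libraries held 26844128 to 38193748 counts. Nothing says that the 2 libraries of a group came from separate cultures, so p-values measure the spread between these libraries, which may be technical.

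ZMYND11 itself stood at 140.7 and 134.6 CPM (counts scaled to library size with edgeR's TMM factors) in the control libraries, 27.7 and 26.1 in ZM11-kd1 and 21.6 and 22.7 in ZM11-kd2. Its log2 fold change was -2.35 in ZM11-kd1 and -2.64 in ZM11-kd2, in the direction of the labels. The 8 markers of prostate luminal cells summed to between 2707 and 4064 CPM in every library, with none of them near 0. Markers of endothelium summed to at most 0.290 CPM and those of leukocytes to at most 2.43 CPM. The 6 stromal markers summed to 33.2 to 35.9 CPM in control, 86.6 to 87.2 in ZM11-kd1 and 44.3 to 44.7 in ZM11-kd2, and their part in the results was not tested. COL1A1 set that order, since the other 5 summed to 9.37 to 12.0 CPM in control, 11.8 to 13.04 in ZM11-kd1 and 12.3 to 14.2 in ZM11-kd2.

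Because these genes are known for compact promoters packed with short regulatory elements, the 500 bases before and 50 after each RefSeq transcription start (GRCh38/hg38) were read for 3 motifs on both strands. RefSeq starts matched for 9 of the 10 genes, and IER3 had none. The CArG box, the SRF element, lay before 3 of the 9 genes, against 2.56% of 35116 promoter windows, which hold 1 window for each listed start. The cAMP response element (CRE) TGACGTCA, the CREB and ATF element, lay before 4 of the 9, against 2.18% of windows. ATF3 has 2 listed starts and counts through the downstream one, so counts over genes and shares over windows are not on quite the same base. The AP-1 site TGANTCA lay before 0 of 9, against 13% of windows. A match is a run of letters and no proof of binding. Stretches around 10 of the 11 matches are printed 5′ to 3′ on the gene's own strand, with the matched letters in capitals.

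FOS, 1 CArG box (chr14:75278494-75278543, + strand): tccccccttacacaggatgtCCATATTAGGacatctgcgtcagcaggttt
FOSB, 1 CArG box (chr19:45467702-45467751, + strand): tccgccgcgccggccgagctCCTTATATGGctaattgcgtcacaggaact
EGR1, 3 distal CArG boxes (chr5:138465041-138465144, + strand): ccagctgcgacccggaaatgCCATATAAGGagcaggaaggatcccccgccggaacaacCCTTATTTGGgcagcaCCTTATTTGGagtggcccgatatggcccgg
EGR1, 2 proximal CArG boxes (chr5:138465354-138465425, + strand): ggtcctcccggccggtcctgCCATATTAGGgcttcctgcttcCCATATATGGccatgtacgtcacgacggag
JUND, 1 CRE (chr19:18281795-18281842, - strand): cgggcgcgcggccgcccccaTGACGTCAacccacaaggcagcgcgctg
DUSP1, 1 CRE (chr5:172771293-172771340, - strand): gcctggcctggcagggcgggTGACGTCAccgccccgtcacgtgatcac
ATF3, 1 CRE before the downstream of its listed starts (chr1:212614518-212614548, + strand): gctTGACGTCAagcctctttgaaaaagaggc

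The 6 genes with a match were FOS, FOSB, JUND, EGR1, ATF3 and DUSP1, with 11 matches in all. EGR1 held 5 CArG boxes between 418 and 83 bases before its start, the most of any of the 9. The windows of JUN, JUNB and IER2 held none of these exact letters, which says nothing about the factors at those genes.

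**Figure D1:**
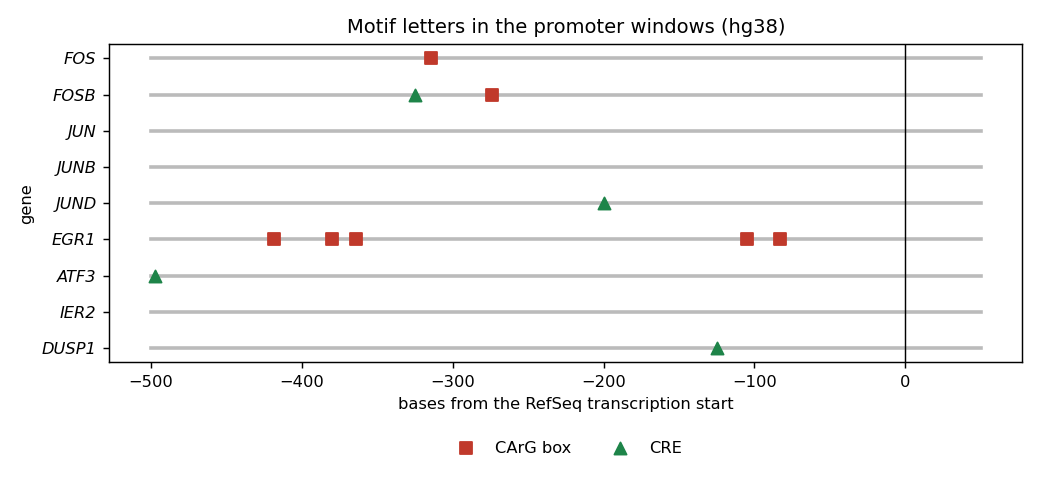
Positions of motif matches in the promoter windows of 9 genes; the x axis gives bases from the RefSeq transcription start (0) and each grey line is the window read. The 5 CArG boxes of EGR1 form a distal and a proximal group, while JUN, JUNB and IER2 are empty.

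Both knockdowns had more of these mRNAs than control. In ZM11-kd1, 9 of the 10 genes were called higher (edgeR's quasi-likelihood test, Benjamini-Hochberg adjusted p under 0.05), where 38.2% of all genes tested were called higher. In ZM11-kd2 the same 9 were called higher, against a background of 36.5%. IER3 passed the test in neither. The transcriptome moved broadly in both lines, so the size of the change tells more than the call. The median log2 fold change over the 10 genes was 2.74 in ZM11-kd1 and 1.30 in ZM11-kd2, and over all genes tested it was -0.03 in each. With log2 values corrected for each gene's GC content and length, the median of the 10 was 1.91 in ZM11-kd1 and 1.29 in ZM11-kd2. In ZM11-kd1, 6 of the 10 rose at least 4-fold (FOS, FOSB, JUNB, EGR1, IER2 and DUSP1), against 5.11% of all genes. In ZM11-kd2, 1 of the 10 did so, DUSP1, against 2.80%. Both knockdown libraries lay above both control libraries for 9 genes in each comparison, against 43.9% of genes in ZM11-kd1 and 42.2% in ZM11-kd2. The 2 comparisons share their control libraries.

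**Figure D2:**
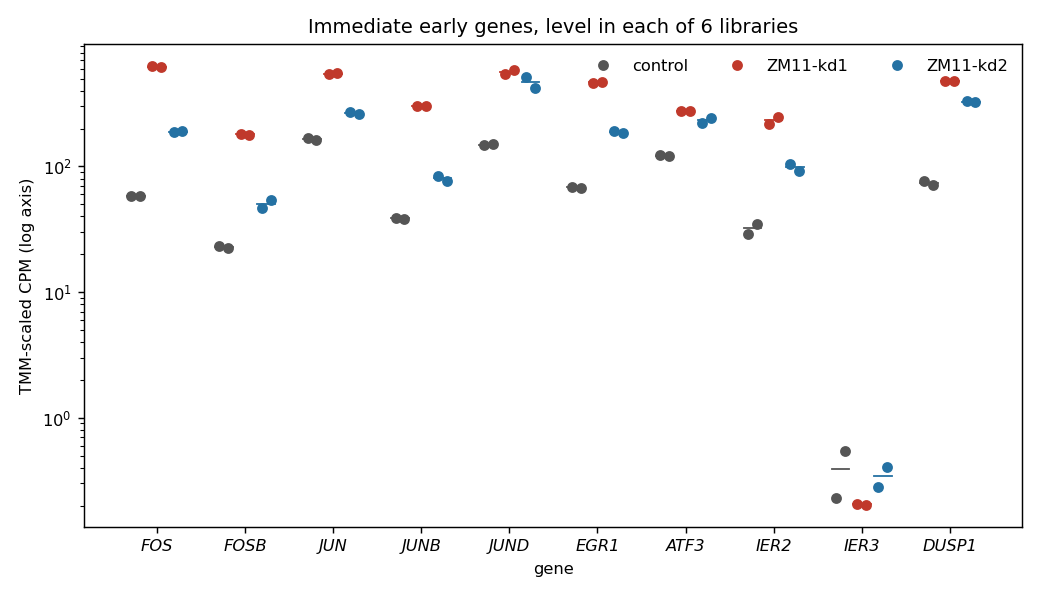
TMM-scaled CPM (log axis) of the 10 genes, with 1 point per library and a short line at the mean of each group of 2. The control libraries lie lowest for every gene but IER3, which stays between 0.203 and 0.547 CPM.

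FOS, the best known partner of JUN in AP-1, changed most of the 10 genes in ZM11-kd1. It stood at 58.3 and 57.8 CPM in control, 630.4 and 616.6 in ZM11-kd1 and 187.3 and 190.0 in ZM11-kd2. No group overlapped another, and the 2 libraries of each lay within a few percent. The rise was 10.7-fold in ZM11-kd1 (log2 3.43, SE 0.05, adjusted p = 5.692e-15) and 3.25-fold in ZM11-kd2 (log2 1.70, SE 0.05, adjusted p = 2.324e-12). In ZM11-kd1, 0.854% of genes rose further than FOS, and in ZM11-kd2 4.46% did. By reads per kilobase of exon (RPKM, computed here from the counts with GENCODE 44 exon lengths), which allows genes to be compared, FOS moved from rank 2066 of 15950 genes in control to rank 230 in ZM11-kd1 and 716 in ZM11-kd2. FOS lies at chr14:75278826-75282230 (+ strand) and its 3186 bases of exon overlap no other annotated gene.

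FOSB, the close relative of FOS, had 23.4 and 22.5 CPM in control, 180.3 and 179.3 in ZM11-kd1 and 47.0 and 54.0 in ZM11-kd2. Again the 3 groups kept apart, with ZM11-kd2 nearer to control. Its log2 fold change was 2.97 (SE 0.07, adjusted p = 1.523e-13) in ZM11-kd1 and 1.13 (SE 0.07, adjusted p = 4.347e-09) in ZM11-kd2. FOSB (chr19:45467995-45475179, + strand) overlaps ERCC1 on the other strand, and whether the counting used strand is not given in the sources used here. ERCC1 moved by 0.62 in ZM11-kd1 and 0.01 in ZM11-kd2 (log2), and whether its reads entered the FOSB counts was not tested.

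JUN, the founding AP-1 subunit, started higher and moved less. It had 167.8 and 161.6 CPM in control, 541.2 and 549.0 in ZM11-kd1 and 270.6 and 260.4 in ZM11-kd2, with no overlap between groups. The log2 fold change was 1.73 (SE 0.05, adjusted p = 1.035e-12) in ZM11-kd1 and 0.69 (SE 0.05, adjusted p = 1.79e-08) in ZM11-kd2, the smallest called rise of the 10 genes in ZM11-kd2. JUN lies at chr1:58776845-58784048 (- strand) and, like JUNB and JUND, its canonical transcript has 1 exon.

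JUNB, a JUN relative often described as a weaker activator, stood at 39.0 and 38.3 CPM in control, 302.3 and 301.8 in ZM11-kd1 and 83.9 and 76.5 in ZM11-kd2. The step to ZM11-kd1 was 7.81-fold (log2 2.96, SE 0.06, adjusted p = 3.936e-14) and that to ZM11-kd2 2.07-fold (log2 1.05, SE 0.06, adjusted p = 1.26e-09). When log2 values were corrected for the GC content and length of each gene, JUNB in ZM11-kd1 was at 1.81. JUNB (chr19:12791486-12793315, + strand) overlaps HOOK2 on the other strand, which moved by 0.43 in ZM11-kd1 and -0.57 in ZM11-kd2 (log2). Whether reads of HOOK2 entered the JUNB counts was not tested.

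JUND, the JUN protein kept in resting cells, had 147.7 and 150.4 CPM in control, 540.0 and 580.3 in ZM11-kd1 and 515.6 and 421.7 in ZM11-kd2. The knockdown libraries all lay above control, and the spread between the ZM11-kd2 libraries was wide. JUND rose by 1.91 (log2, SE 0.08, adjusted p = 2.129e-11) in ZM11-kd1 and by 1.65 (SE 0.08, adjusted p = 1.574e-10) in ZM11-kd2. Its transcript (chr19:18279694-18281622, - strand) is 69.9% G and C, the highest of the 10, and the ZM11-kd1 value fell to 0.51 with the correction for GC content and length, while the ZM11-kd2 value was 1.41.

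EGR1, a zinc finger factor and a classical SRF target, had 69.1 and 67.0 CPM in control, 464.8 and 472.1 in ZM11-kd1 and 190.3 and 184.5 in ZM11-kd2. The groups were far apart and the libraries within each close. Its log2 fold change was 2.78 (SE 0.05, adjusted p = 2.388e-14) in ZM11-kd1 and 1.46 (SE 0.05, adjusted p = 9.867e-12) in ZM11-kd2. EGR1 lies at chr5:138465479-138469303 (+ strand), and the 5 CArG boxes printed above stand before it.

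ATF3, a stress-induced factor that pairs with JUN proteins and also binds the CRE, was already abundant in control, at 122.4 and 121.4 CPM. It reached 275.0 and 275.6 CPM in ZM11-kd1 and 222.5 and 244.1 in ZM11-kd2. It rose by 1.17 in ZM11-kd1 (log2, SE 0.06, adjusted p = 9.328e-11), and by 0.94 (SE 0.06, adjusted p = 1.746e-09) in ZM11-kd2. ATF3 spans chr1:212565334-212620777 (+ strand) and is the longest of the 10 genes.

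IER2, a nuclear protein of the early response, rose from 29.2 and 35.0 CPM in control to 216.9 and 248.0 in ZM11-kd1 and 104.8 and 91.3 in ZM11-kd2. The 3 groups did not overlap. The log2 fold change was 2.85 (SE 0.09, adjusted p = 2.235e-12) in ZM11-kd1 and 1.61 (SE 0.09, adjusted p = 1.145e-09) in ZM11-kd2. With the correction for GC content and length the ZM11-kd1 value was 2.12. IER2 lies at chr19:13150411-13154911 (+ strand), and FOSB, JUNB, JUND and IER2 share chromosome 19.

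IER3, an early gene tied to cell survival, was close to the limit of detection. The counts were 7 and 17 in control, 7 and 6 in ZM11-kd1 and 10 and 14 in ZM11-kd2. On the scaled values (0.230 and 0.547, 0.206 and 0.203, 0.280 and 0.409 CPM) ZM11-kd2 overlapped control, while both ZM11-kd1 libraries lay just below it. Its log2 fold change was -0.92 (SE 0.65, adjusted p = 0.210) in ZM11-kd1 and -0.18 (SE 0.59, adjusted p = 0.793) in ZM11-kd2, and a change was not detectable at this depth. The ZM11-kd1 value was -1.84 (adjusted p = 0.0174) with the correction for GC content and length, -0.17 (adjusted p = 0.886) without control replicate 2 and -1.41 (adjusted p = 0.136) without control replicate 1. IER3 lies at chr6:30743199-30744548 (- strand), between FLOT1 (2446 to 5251 counts per library) and DDR1 (5138 to 8644), both of which were well covered.

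DUSP1, the phosphatase that turns off ERK, JNK and p38, had 76.5 and 71.7 CPM in control, 478.8 and 480.3 in ZM11-kd1 and 331.1 and 324.3 in ZM11-kd2. Unlike FOS, it held most of its rise in ZM11-kd2. The log2 fold change was 2.69 (SE 0.06, adjusted p = 3.65e-14) in ZM11-kd1 and 2.14 (SE 0.05, adjusted p = 3.781e-13) in ZM11-kd2, the largest rise of the 10 genes in that line. The ZM11-kd1 value was 2.01 and the ZM11-kd2 value 1.94 with the correction for GC content and length, and 1.97 in ZM11-kd2 with library totals in place of TMM factors. DUSP1 lies at chr5:172768096-172771195 (- strand), with the CRE printed above 125 bases before its start.

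**Figure D3:**
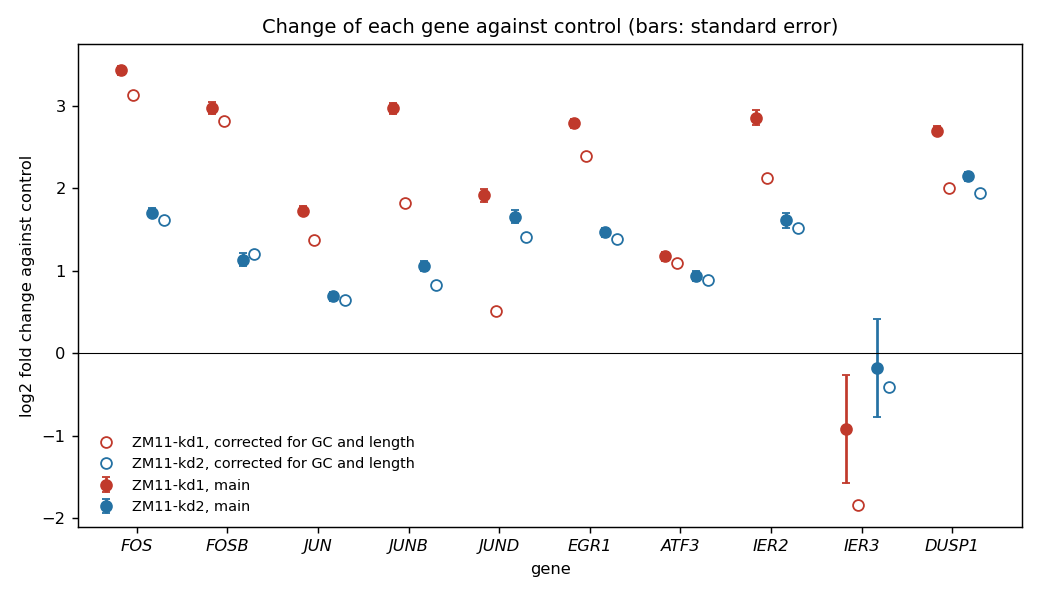
Log2 fold change against control of each gene in both knockdowns; filled points with bars give the main fit and its standard error, open points the fit corrected for GC content and length. JUND in ZM11-kd1 moves furthest, from 1.91 to 0.51, and no open point of the 9 called genes falls below 0.

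The 2 knockdown lines differed in degree. All 9 genes were called lower in ZM11-kd2 than in ZM11-kd1, against 33.8% of genes tested. Being higher in both lines and lower in ZM11-kd2 than in ZM11-kd1 applied to the same 9, against 12.4%. The difference was widest for JUNB at -1.91 (log2, SE 0.06, adjusted p = 6.263e-12), followed by FOSB at -1.83 and FOS at -1.72. The order turned with the correction for GC content and length, where FOSB had -1.62, FOS -1.52 and JUNB -0.99. EGR1, IER2 and JUN fell between -1.32 and -1.04. ZMYND11 was itself lower in ZM11-kd2 than in ZM11-kd1, by -0.28 (adjusted p = 0.00265), a difference that was -0.10 (adjusted p = 0.259) with library totals and -0.73 (adjusted p = 2.524e-08) with the correction for GC content and length. That correction also moved ZMYND11 in ZM11-kd1 from -2.35 to -1.64.

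For 3 genes the difference between the lines was small and hung on the settings. DUSP1 differed by -0.55 (log2, SE 0.05, adjusted p = 2.488e-07), and by -0.06 (adjusted p = 0.280) after the correction for GC content and length. JUND differed by -0.26 (SE 0.08, adjusted p = 0.00766). That call was lost with library totals (-0.07, adjusted p = 0.343) and without ZM11-kd1 replicate 2 (-0.20, adjusted p = 0.0903), and with the GC and length correction the sign turned, to 0.91 (adjusted p = 5.115e-11). ATF3 differed by -0.24 (SE 0.05, adjusted p = 0.00141), and by -0.05 (adjusted p = 0.421) with library totals. The differences of JUNB (-0.99) and IER2 (-0.60) shrank under the GC and length correction and passed the test.

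The make-up of the AP-1 pool shifted with these changes. Summed over FOS, FOSB, FOSL1 and FOSL2, the FOS family stood at 26.9 and 26.5 RPKM in control, 241.2 and 236.8 in ZM11-kd1 and 77.7 and 80.6 in ZM11-kd2. The JUN family stood at 144.2 and 143.5 RPKM in control, 594.5 and 617.3 in ZM11-kd1 and 387.8 and 332.2 in ZM11-kd2. JUN family transcripts thus outnumbered FOS family transcripts in every library. The ratio of FOS to JUN family was 0.184 and 0.187 in control, 0.384 and 0.406 in ZM11-kd1 and 0.200 and 0.243 in ZM11-kd2. With RPKM corrected for GC content and length it was 0.150 and 0.146 in control, 0.562 and 0.549 in ZM11-kd1 and 0.184 and 0.201 in ZM11-kd2. On either scale the ratio lay above control in all knockdown libraries, and closer to it in ZM11-kd2, but the size of the ZM11-kd1 ratio depends on the correction. No test was made of it.

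Within the families, FOS supplied 68.0% and 68.5% of FOS family RPKM in control, 82.0% and 81.7% in ZM11-kd1 and 75.6% and 74.0% in ZM11-kd2. FOSL2, which is less transient than FOS, made up 15.7% and 15.6% in control, 4.40% and 4.53% in ZM11-kd1 and 11.1% and 11.4% in ZM11-kd2. JUND supplied 53.1% and 54.3% of JUN family RPKM in control, 47.1% and 48.7% in ZM11-kd1 and 68.9% and 65.8% in ZM11-kd2. JUNB took a larger share in ZM11-kd1, of 27.8% and 26.7% against 14.8% and 14.6% in control, and held 11.8% and 12.6% in ZM11-kd2. The 2 lines therefore departed from control in opposite directions for JUND and JUNB shares. The JUN share went from 32.1% and 31.1% in control to 25.1% and 24.5% in ZM11-kd1. With RPKM corrected for GC content and length it turned, from 26.9% and 25.6% to 33.16% and 33.25%. These shares are descriptions of mRNA with no test, and those of JUND and JUN depend on the correction.

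**Figure D4:**
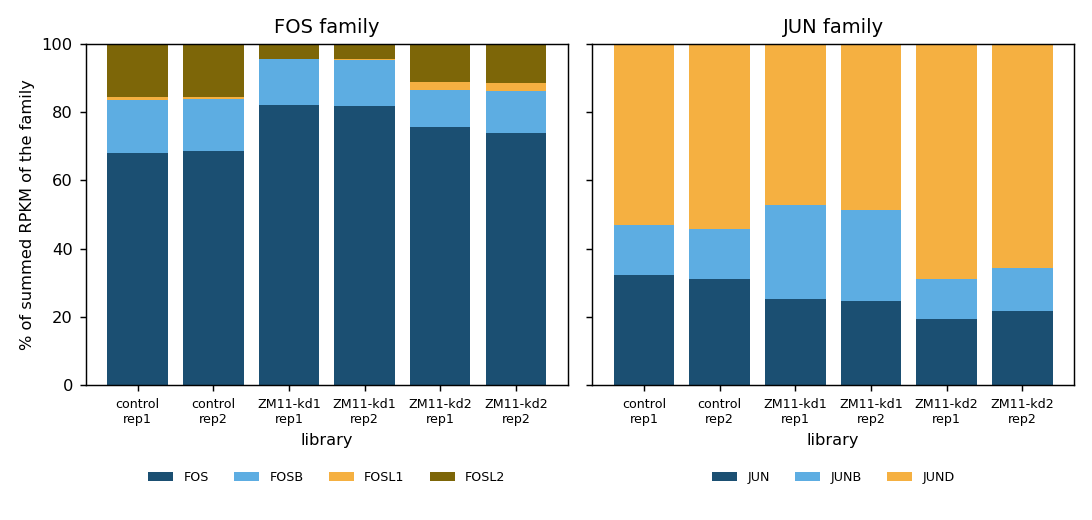
Share of each subunit in the summed RPKM of the FOS family (left) and the JUN family (right), in percent, with 1 bar for each library. FOS reaches 82.0% in ZM11-kd1 replicate 1, and JUND 68.9% in ZM11-kd2 replicate 1. The shares are drawn without the correction for GC content and length.

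By RPKM the order of the 10 genes also changed. Control means ran from JUND (77.3) through JUN (45.5), DUSP1 (36.8), ATF3 (30.5), EGR1 (21.7), JUNB (21.1), FOS (18.2), IER2 (10.4) and FOSB (4.14) down to IER3 (0.288). In ZM11-kd1 the order at the top was JUND (290.4), DUSP1 (238.2) and FOS (195.7), so that FOS passed JUN (150.4) and ATF3 (68.8). That order depends on the correction for GC content and length, with which DUSP1 (198.2) and FOS (191.1) stood above JUND (173.5) and JUN (141.2) in ZM11-kd1. In ZM11-kd2 it was JUND (242.9), DUSP1 (162.8) and JUN (73.3), with EGR1 (59.7), FOS (59.2) and ATF3 (58.4) too close to order. EGR1 and JUNB were likewise close in control.

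In features that the choice by name did not use, the medians over the 10 genes lay apart from those of all genes. The median GC content was 56.9%, against 48.7% over the tested genes with an annotation. The median span was 3615 bases against 31032, with ATF3 above the latter at 55444, and the median number of exons was 2 against 8. The median exon length was 3108 bases against 5057.5, with FOSB above the latter at 5553. The plot of changes against control shows the corrected value of each of the 10 genes. Genomic neighbours went in both directions. Over the 22 nearest or overlapping tested genes the log2 fold change ran from -5.59 to 3.04 in ZM11-kd1 (median 0.60) and from -5.85 to 3.27 in ZM11-kd2 (median 0.14). Leaving out the 2 beside the barely detected IER3, 5 of the other 20 were called and had a larger value in size than the early gene beside them in ZM11-kd1, and 5 in ZM11-kd2. REEP2, at 3.04 in ZM11-kd1, lies beside EGR1, and NEURL1B, with the lowest value in each line, lies beside DUSP1. Both were picked out with their values in view.

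Genes around the 10 were read in lists, with counts, medians and named values from the main fit. The correction for GC content and length moved JUND in ZM11-kd1 from 1.91 to 0.51. How far the list values depend on it was not tested. Each count is set against all genes tested, of which 38.2% were called higher and 39.8% lower in ZM11-kd1, 36.5% higher and 36.9% lower in ZM11-kd2, and 34.9% higher and 33.8% lower in ZM11-kd2 than in ZM11-kd1.

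Of 7 other AP-1 partners tested, 5 (71.4%) were called higher and 0 lower in ZM11-kd1 (median log2 0.63), and 4 (57.1%) higher and 1 lower in ZM11-kd2 (median 0.18). FOSL2 rose in both, by 1.35 and 1.09. FOSL1 went the other way round from FOS, at 0.329 and 0.258 CPM in control, 0.500 and 0.405 in ZM11-kd1 and 3.50 and 3.77 in ZM11-kd2. FOSL1 was called only in ZM11-kd2 (log2 3.62, adjusted p = 1.984e-07), and it was higher there than in ZM11-kd1 by 2.98 (adjusted p = 7.616e-07). JDP2, a repressive partner of JUN, rose by 1.11 in ZM11-kd1 and had -0.05 (adjusted p = 0.553) in ZM11-kd2.

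Other early transcription regulators mostly rose. Of 15 tested, 14 (93.3%) were called higher and 1 lower in ZM11-kd1 (median log2 1.25), against 38.2% higher over all genes. In ZM11-kd2 12 (80.0%) were higher and 2 lower (median 1.09), against 36.5% higher. Between the lines 5 (33.3%) were higher and 6 of 15 lower in ZM11-kd2, near the shares over all genes (34.9% and 33.8%). KLF2, a zinc finger factor, rose by 2.46 in ZM11-kd1 and 1.55 in ZM11-kd2. NR4A3, an orphan nuclear receptor, rose by 1.97 and by 2.97, and BHLHE40, a circadian repressor, by 1.25 and by 2.27, both higher in ZM11-kd2 than in ZM11-kd1 (by 1.00 and 1.02).

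Of 15 early genes for secreted and signalling proteins, 9 were called higher and 6 lower in ZM11-kd1 (median log2 0.78), against 38.2% and 39.8% of all genes, so that the part called lower is near the background. In ZM11-kd2 8 (53.3%) were higher and 3 lower (median 0.52), against 36.5% and 36.9%. HBEGF, a ligand of the EGF receptor, had 4.07 and 3.25 CPM in control, 46.5 and 44.9 in ZM11-kd1 and 11.5 and 10.9 in ZM11-kd2, the same order of groups as for FOS. ARC, a cytoskeletal early gene of neurons, rose by 3.12 in ZM11-kd1 and had 0.37 (adjusted p = 0.353) in ZM11-kd2. CCN2, a matrix protein and YAP target, had log2 fold changes of -4.11 in ZM11-kd1 and -5.02 in ZM11-kd2, against the direction of the 9 genes.

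Of 23 feedback inhibitors of the pathway, 13 (56.5%) were called higher and 7 (30.4%) lower in ZM11-kd1 (median log2 0.51), against 38.2% and 39.8% of all genes. In ZM11-kd2 14 (60.9%) were higher and 5 (21.7%) lower (median 0.65), against 36.5% and 36.9%. GADD45B, a stress-induced regulator of p38 and JNK signalling, rose by 3.11 and 1.14, and TNFAIP3, an inhibitor of NF-kB, by 2.74 and 1.89. DUSP16, a JNK phosphatase, had -2.95 in ZM11-kd1 and -0.47 in ZM11-kd2, unlike DUSP1.

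Of 21 kinases of the ERK, JNK and p38 pathways, which act upstream of the 10 genes, 10 (47.6%) were called higher and 10 (47.6%) lower in ZM11-kd1 (median log2 -0.02), against 38.2% and 39.8% of all genes. In ZM11-kd2 11 (52.4%) were higher and 5 (23.8%) lower (median 0.24), against 36.5% and 36.9%. MAP2K3 and MAP2K6, both activators of p38, moved apart. MAP2K3 rose by 1.46 and 1.87, whereas MAP2K6 was lower (-2.22 and -2.91). RPS6KA5, a kinase that phosphorylates CREB and histone H3, was lower in both, at -2.75 in ZM11-kd1 and -1.66 in ZM11-kd2. Of 9 SRF, TCF and CREB family factors, 3 (33.3%) were called higher and 5 (55.6%) lower in ZM11-kd1 (median -0.36), and 5 (55.6%) higher and 2 (22.2%) lower in ZM11-kd2 (median 0.33). ELK4, a ternary complex factor, was lower (-1.85 and -0.84), as was MRTFB, an SRF coactivator (-0.94 and -0.93). CREM, a CREB relative, rose by 1.70 and 1.79.

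Of 12 cytoskeletal targets of SRF and MRTF, 5 (41.7%) were called higher and 4 (33.3%) lower in ZM11-kd1 (median log2 0.17), and 4 (33.3%) higher and 5 (41.7%) lower in ZM11-kd2 (median -0.11). These shares are near those of all genes (38.2% and 39.8%, then 36.5% and 36.9%). FHL2 rose in both, by 2.73 and 2.85, TPM2 rose by 2.69 in ZM11-kd1 and had -0.01 (adjusted p = 0.973) in ZM11-kd2, and ACTA2 had 0.19 (adjusted p = 0.538) in ZM11-kd1 and rose by 2.33 in ZM11-kd2. Of 9 late AP-1 targets tested, 5 (55.6%) were called higher and 1 (11.1%) lower in ZM11-kd1 (median 0.44), and 5 (55.6%) higher and 4 (44.4%) lower in ZM11-kd2 (median 1.30). VIM, the mesenchymal filament gene, rose by 3.46 and 1.90. MMP10, a matrix protease, stood at 3.12 and 3.57 CPM in control, 5.33 and 5.20 in ZM11-kd1 and 47.7 and 45.3 in ZM11-kd2. It was called higher in both lines, by 0.65 in ZM11-kd1 and 3.79 in ZM11-kd2 (log2). MMP1, its collagenase relative, was called only in ZM11-kd2 (log2 4.24, SE 0.41), with 0.36 (adjusted p = 0.616) in ZM11-kd1. Its counts were 4 and 5 in control, 6 and 6 in ZM11-kd1 and 103 and 96 in ZM11-kd2, so the size of its rise is uncertain.

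Because early mRNAs are removed quickly, a list of mRNA decay factors was read as well. Of 11 tested, 0 were called higher and 8 (72.7%) lower in ZM11-kd1 (median log2 -0.85), against 39.8% lower over all genes, and 2 higher and 7 (63.6%) lower in ZM11-kd2 (median -0.23), against 36.9%. The AU-rich element binding proteins ZFP36 and its relatives stood in the list of feedback inhibitors instead. ZFP36 (2.09 and 1.40) and ZFP36L1 (0.40 and 0.65) rose in both lines while ZFP36L2 was lower (-1.73 and -1.01), so the count depends on how the list was drawn. They were named after their values were seen. CNOT1, the scaffold of the CCR4-NOT deadenylase, had 198.2 and 182.4 CPM in control, 34.9 and 31.8 in ZM11-kd1 and 107.7 and 148.8 in ZM11-kd2. PAN2, another deadenylase subunit, was lower in both (-2.39 and -1.61), and the exonuclease XRN1 fell by 1.23 in ZM11-kd1 and had -0.08 (adjusted p = 0.420) in ZM11-kd2. Between the lines, 10 of the 11 (90.9%) were higher in ZM11-kd2, against 34.9% of all genes, and mRNA stability was not measured.

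Proliferation markers fell alongside. All 10 were called lower in both lines, with medians of -4.72 in ZM11-kd1 and -3.49 in ZM11-kd2 (log2), and their summed level was 1253 and 1254 CPM in control, 107 and 112 in ZM11-kd1 and 169 and 183 in ZM11-kd2. MKI67, the Ki-67 antigen, was at -8.11 and -6.59, TOP2A at -7.23 and -5.82, and BUB1 at -5.97 and -4.72. The study reports that the knockdown raised growth and colony formation in cells of this line. The lower marker mRNA in these libraries runs opposite to that report, and the reason was not tested. In bulk RNA, fewer cycling cells and less RNA per cell cannot be told apart. Whether the proliferation state has a part in the levels of the early genes was not tested.

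**Figure D5:**
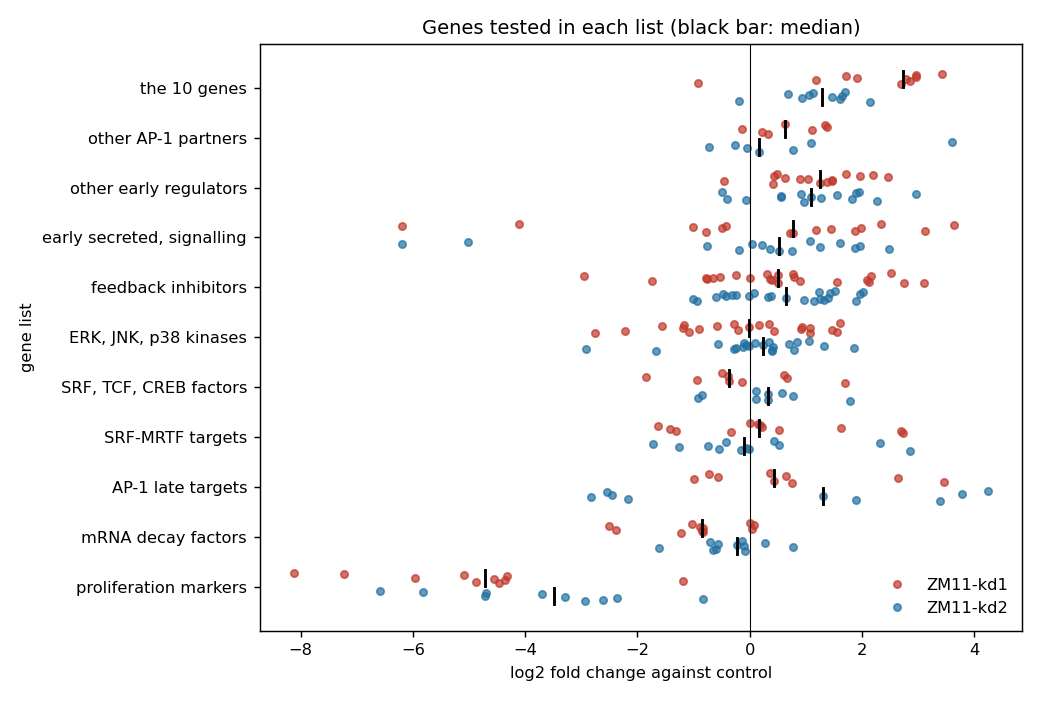
Log2 fold change against control of every tested gene in each list, with ZM11-kd1 in red, ZM11-kd2 in blue and a black bar at the median. Of the 10 genes, 9 sit to the right of 0 in both lines and IER3 to the left (medians over the 10 of 2.74 and 1.30), the kinases centre near 0 and the proliferation markers lie far to the left (medians -4.72 and -3.49).

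The genes whose profile over the 6 libraries was nearest were found by the root mean square difference of centred log2 CPM. For FOS they were H2BC21 (0.038), H2AC11, LOC100996756, VIM and H2BC5 (0.112). H2BC21, H2AC11 and H2BC5 are histone genes. For JUN they were ATP6V0E2 (0.031), UQCC2, PNKD, SMDT1 and MOB2 (0.047), and for EGR1 they were CSTB (0.063), DNAJB2, SMPD1, GTF2IRD2 and TIMP1 (0.082). None of the 15 is one of the 10 early genes. With 3 groups of 2 libraries, many genes share any given profile.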

How the data were processed

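The authors deposited unnormalized read counts for each gene symbol in 6 RNA-seq libraries. In the study, AdapterRemoval trimmed the reads, STAR placed them on hg38 and SAMtools sorted the alignments; the submitters' processing notes name FastQC 0.11.9, STAR 2.7.9a and HTSeq 0.13.5. Poly(A) selection or rRNA removal was used, without saying which. Annotation, strand setting and handling of multiple matches are not given in the sources used here.

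Samples were grouped by their labels. The test was that of edgeR 4.0.16, run under R 4.3.3 (TMM, filterByExpr, quasi-likelihood test without robust estimation, all 6 libraries, Benjamini-Hochberg over 16510 genes, adjusted p under 0.05). TMM assumes that most genes do not change. SE is the absolute log2 fold change over the square root of F. A count of 3 equals 0.0840 to 0.101 CPM in these libraries. Of 35322 symbols, 32852 matched GENCODE 44. Figures used matplotlib 3.10.9.

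The 10 genes and all lists were chosen with earlier results of these data known. Named list genes are up to 3 per list with the largest absolute log2 fold change among called genes with mean log2 CPM of at least 0; the 5 nearest profiles were taken for FOS, JUN and EGR1. JUND, DUSP1 and ATF3 are singled out between the lines after their values were seen. Replicates differed beyond counting noise in each group, with a chi-square per gene of 2.37 in control, 3.97 in ZM11-kd1 and 10.7 in ZM11-kd2. The fit pools the spread over the groups, so SE and adjusted p for ZM11-kd2 may understate that line's own spread.

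Alternatives were DESeq2 size factors, the DESeq2 1.42.0 Wald test, library totals, a replicate block, a 1.5-fold minimum, fits of the compared groups alone, no low-count filter, a filter of 10 counts in each library, a lowess correction for GC content and gene length (span 0.3, 15950 genes) and each library left out. Some promoter stretches are not reported here.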

Additional observations from a re-analysis of the deposited data

Results flagged for a closer look

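The effect on 9 genes differed between the knockdown lines by the test of ZM11-kd2 against ZM11-kd1 (edgeR's quasi-likelihood test, adjusted p under 0.05). The log2 differences were -1.91 for JUNB, -1.83 for FOSB, -1.72 for FOS, -1.32 for EGR1, -1.24 for IER2, -1.04 for JUN, -0.55 for DUSP1, -0.26 for JUND and -0.24 for ATF3. Each of these 9 was lower in both ZM11-kd2 libraries than in both ZM11-kd1 libraries. Over all genes tested, 33.8% were called lower in that comparison, and the share with both libraries lower was not counted. The call or sign of the last 3 depends on the settings, as given beside them in the report. The size of others does too: with the correction for GC content and length JUNB had -0.99 and IER2 -0.60.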

How the results depend on the processing

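Against control, the 9 genes were called higher in both lines under each of the 14 alternative fits. Of their 378 alternative values over the 3 comparisons, 373 kept direction and call, 4 lost the call and 1 turned. The turned value is JUND between the lines, 0.91 with the GC and length correction. IER3 in ZM11-kd2 ran from -0.67 to 0.57 with 1 library left out, being 0.57 without control replicate 2 and 0.07 without ZM11-kd2 replicate 1. A 1.5-fold minimum left 7389 of 11355 genes called between the lines. DUSP1 (1.46-fold lower in ZM11-kd2), JUND (1.20-fold) and ATF3 (1.18-fold) lay under that minimum. Genes at least 4-fold higher in ZM11-kd2 fell from 1 of the 10 to 0 with library totals and with the GC and length correction; for ZM11-kd1 that correction left 5 of 6, without JUNB, beside 3.77% of all genes. These 4-fold counts, the corrected medians over the 10 genes and the corrected RPKM values were added after the data had been seen. Library totals shifted the median of all genes by -0.35 in ZM11-kd1 and -0.17 in ZM11-kd2, and the share of calls that were higher was 35.3% against 49% in ZM11-kd1, 40.8% against 49.8% in ZM11-kd2 and 61.1% against 50.8% between the lines.

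Replicate numbers did not pair the libraries (correlations of deviations 0.01, -0.03 and -0.04). A replicate block called 12545, 11688 and 10978 genes in the 3 comparisons, against 12882, 12118 and 11355, and changed no call among the 10 genes. IER3 had no value under the filter of at least 10 counts in every library, and its counts limit what can be said of it.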
